A study of Mus musculus with 17 samples.

Results

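BCOR is the scaffold of a variant Polycomb complex, and 9 genes of that complex and its partners were followed here in mouse bone marrow: Bcor, Bcorl1, Pcgf1, Kdm2b, Rybp, Ring1, Rnf2, Skp1a and Bcl6. They are 9 of the 56305 genes in the count tables. The members were chosen by name around Bcor, and Bcor itself was selected on its difference between Mt1ko and control samples, which was among those with the smallest p. Its levels in the 2 groups are therefore given as a description, with no test. The bone marrow came from C57BL/6 mice with acute myeloid leukaemia, and every library, the controls included, carried the genotype Dnmt3aR878H/+;Npm1cA/+, a heterozygous point mutation of a DNA methyltransferase with a heterozygous allele that keeps nucleophosmin in the cytoplasm. The Mt1ko group carried in addition a knockdown of Mt1, the gene for the zinc-binding protein metallothionein 1, made with CRISPR-Cas9, and the series asked how transcription differed between the groups. There were 8 control and 9 Mt1ko libraries of total RNA, which the deposited table of sums joins into 3 control samples (libraries 1-3, 7-9 and 14-15) and 3 Mt1ko samples (4-6, 10-12 and 16-18). Age, sex, the guides used and whether the edited cells are 1 clone are not stated. All libraries are called technical replicates, and nothing states that the sums came from separate animals, so that any error or p given measures only how far these samples spread, and that spread may be technical.

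Polycomb complexes silence genes by modifying histones. The complex built on BCOR or its paralog BCORL1 belongs to the variant forms of Polycomb repressive complex 1: PCGF1 is its defining RING finger subunit, RING1 or RNF2 is the enzyme that attaches ubiquitin to histone H2A, RYBP stimulates that enzyme, and KDM2B, with SKP1, brings the complex to unmethylated CpG islands through a zinc finger. BCL6, a sequence-specific repressor best known from germinal centre B cells, recruits BCOR to its own target genes, and both BCOR and BCORL1 are mutated in human myeloid leukaemia.

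Because KDM2B reads CpG dinucleotides, the start regions of the genes themselves were examined for CG content. Windows of 300 bases, from 250 before to 50 after an annotated start, were available for 7 of the 9 members from RefSeq (build GRCm38.p6), giving 12 windows, with none used for Pcgf1 and Rybp. Shown as examples are 1 of the 2 overlapping windows of Bcor, the gene the set is built on, and the windows of the alternative ubiquitin ligases, with each CG in capitals. The Bcor window lies at chrX:12160297-12160596, that of Ring1 at chr17:34024631-34024930 and that of Rnf2 at chr1:151500942-151501241, all on the minus strand and written 5′ to 3′ along the gene.
Bcor: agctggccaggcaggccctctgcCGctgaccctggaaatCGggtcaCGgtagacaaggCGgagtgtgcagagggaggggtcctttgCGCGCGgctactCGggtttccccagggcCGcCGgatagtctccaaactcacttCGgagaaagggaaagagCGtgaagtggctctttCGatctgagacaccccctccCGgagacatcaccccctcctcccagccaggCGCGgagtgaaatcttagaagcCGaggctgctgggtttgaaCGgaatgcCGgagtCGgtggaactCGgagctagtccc
Ring1: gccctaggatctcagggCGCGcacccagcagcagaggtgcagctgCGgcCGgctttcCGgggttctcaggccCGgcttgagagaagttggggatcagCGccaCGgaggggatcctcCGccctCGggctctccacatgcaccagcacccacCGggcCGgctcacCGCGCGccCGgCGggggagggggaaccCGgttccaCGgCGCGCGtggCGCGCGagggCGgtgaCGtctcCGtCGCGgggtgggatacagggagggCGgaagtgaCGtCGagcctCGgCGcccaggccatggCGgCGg
Rnf2: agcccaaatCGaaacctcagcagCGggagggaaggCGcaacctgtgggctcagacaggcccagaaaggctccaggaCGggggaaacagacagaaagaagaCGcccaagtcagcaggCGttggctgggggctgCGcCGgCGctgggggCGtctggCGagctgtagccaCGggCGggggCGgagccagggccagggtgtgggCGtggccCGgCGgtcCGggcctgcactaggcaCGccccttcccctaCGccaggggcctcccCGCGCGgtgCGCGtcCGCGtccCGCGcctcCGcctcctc
The Bcor window held 21 CG dinucleotides, that of Ring1 37 and that of Rnf2 30. The median over all 32841 windows of the table was 7, and 75.2%, 94.4% and 88.3% of windows held fewer than these 3. Counts in the 12 member windows ran from 14, in a Bcl6 window, to 49, in a Kdm2b window, so that none fell below the median of all windows. Their GC content was 51.7% to 81.7%, against a median of 52.7%. The core of the metal response element, through which the zinc-sensing factor MTF1 drives metallothionein genes, was searched as TGCACNC or TGCGCNC on both strands. It was found in 5 of the 12 member windows, and 25.7% of all windows held it. Both Bcor windows, which overlap, held it, in the window shown at positions -188 and -166 relative to the start. The match at -166, TGCGCGC, itself holds CG, so that the matches are not independent of CG content. The BCL6 consensus TTCCTAGAA was in 0 of the 12 windows on either strand and in 0.411% of all windows. These matches describe letters only, and no binding was measured.

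Total counts per library were 27124722 to 38645072 and per summed sample 64247249 to 106407001, and each sum equalled the total of its libraries in every gene. Values are in CPM, counts normalised to library size, scaled by TMM (trimmed mean of M values) factors for summed samples and relative to all counts for single libraries. Mt1 was 348 to 471 CPM in the control libraries and 41.8 to 87.2 CPM in 8 of the 9 Mt1ko libraries, whereas the library labelled Mt1ko 6 had 326 CPM, close to the controls. Libraries 10 to 12, which make up 1 of the 3 Mt1ko samples, also stood apart: the share of mitochondrial ribosomal RNA was 21.9% to 30.2% in them and 4.6% to 11.2% elsewhere, and 11548 to 13174 genes were detected in them, against 14823 to 17739 elsewhere. Markers of monocytes and macrophages were high, 9 of 10 at 10 CPM or more in the control mean, with Lyz2 at 3479 ± 1882 CPM and Itgam at 2982 ± 177 CPM (SD, n = 3). Markers of the lymphoid cells in which BCL6 is best known were at or near 0: 9 of 10 B cell genes and 10 of 10 T and NK cell genes had a control mean under 1 CPM. Of the B cell genes, Ms4a1 and Pax5 were at 0 in all samples. In bulk RNA, fewer cells of a type and less RNA per cell cannot be told apart.

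Bcor encodes the scaffold that joins the enzyme module to BCL6. The gene (ENSMUSG00000040363) lies at chrX:12036740-12160355 on the minus strand of GRCm38, with 8 annotated transcripts and no overlapping gene. Its level in the summed control samples was 116.2, 116.8 and 98.5 CPM (libraries 1-3, 7-9 and 14-15), and in the summed Mt1ko samples 134.9, 167.1 and 155.2 CPM (4-6, 10-12 and 16-18). Every Mt1ko sample was above every control sample. The control samples averaged 110.5 ± 10.4 CPM and the Mt1ko samples 152.4 ± 16.3 CPM (SD over 3 samples of each group), a 1.38-fold difference, or 0.46 as a log2 fold change on the edgeR fit (SE 0.14). With 6636 to 14804 counts per sample, Bcor was among the best counted of the members.

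Single libraries are given as a description, since they are technical replicates within a sample and Bcor was selected on this contrast. The 8 control libraries had 119.1, 115.4 and 124.3 CPM of Bcor in sample 1-3, 146.0, 106.7 and 112.4 CPM in sample 7-9, and 103.4 and 103.2 CPM in sample 14-15. The 9 Mt1ko libraries had 140.3, 134.6 and 131.2 CPM in sample 4-6, 124.6, 148.7 and 153.0 CPM in sample 10-12, and 184.7, 146.0 and 153.0 CPM in sample 16-18. The groups overlapped through control library 7, at 146.0 CPM. All 9 Mt1ko libraries were above the second-highest control library, at 124.3 CPM, and 5 of them were above every control library. Of those 5, library 17 differed from control library 7 only beyond the digits shown. With mitochondrial ribosomal RNA counts taken out of the totals, the control libraries ran from 109.6 to 155.3 CPM. The Mt1ko libraries then ran from 139.8 to 219.1 CPM, and 5 of 9 were above every control. Library 17 (154.2 CPM) was no longer among these 5, and library 10 (169.1 CPM) was. The share of all genes whose libraries separate in this way was not computed, and nothing is read from these counts.

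Library 6, in which Mt1 was near the control level, had 131.2 CPM of Bcor, the lowest of its sample, but above 7 of the 8 control libraries. The log2 fold change of Bcor was 0.47 with library 6 left out of its sum, 0.40 without sample 10-12, and 0.41 without library 6 and libraries 10 to 12. Over all 17 alternative analyses it was between 0.39 and 0.54. Since Bcor was selected on this contrast, nothing is read from that steadiness. The libraries carried 1 of 3 second index sequences, which fall unevenly over the groups. Among libraries with the first, the mean of Bcor was 122.3 CPM in 5 control libraries (106.7 to 146.0) and 135.3 CPM in 3 Mt1ko libraries (131.2 to 140.3), which overlapped. Among those with the second it was 106.3 CPM in 3 control libraries (103.2 to 112.4) and 152.8 CPM in 4 Mt1ko libraries (124.6 to 184.7), with no overlap. The third held only 2 Mt1ko libraries, at a mean of 149.5 CPM.

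**Figure D1:**
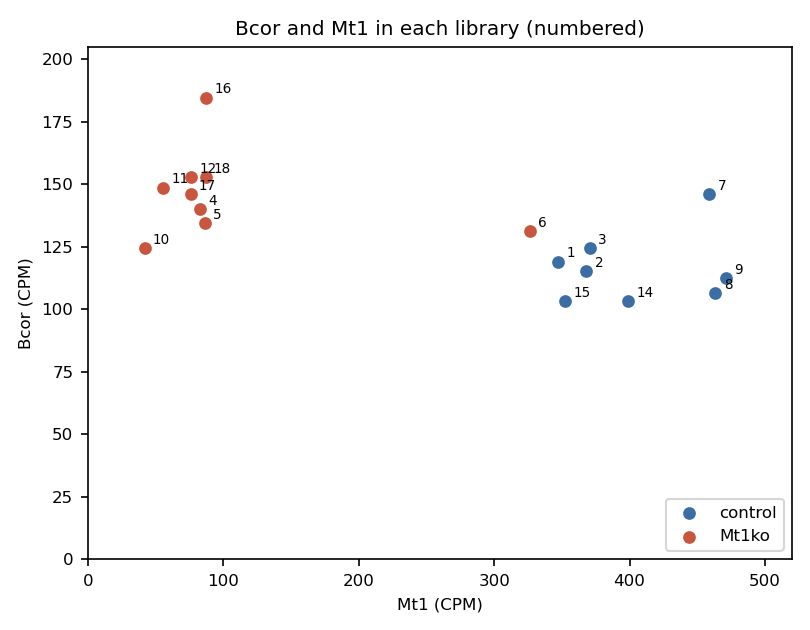
Level of Bcor (CPM, vertical axis) against that of Mt1 (CPM, horizontal axis) in each of the 17 libraries, numbered, with control in blue and Mt1ko in red. Mt1ko libraries lie at low Mt1 and 124.6 to 184.7 CPM of Bcor, apart from library 6 at 326 CPM of Mt1; control library 7 is the control at 146.0 CPM of Bcor.

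Bcor is X-linked, and the X inactivation transcript Xist differed between samples, with 8.31, 38.3 and 27.1 CPM in control and 14.5, 214 and 8.37 CPM in Mt1ko. Sample 10-12 stood far above the rest in Xist and was also highest in Bcor; the part of this in the Bcor level was not tested, and sample 16-18, at 8.37 CPM of Xist, had 155.2 CPM of Bcor. The Y-linked genes Ddx3y and Eif2s3y were at 0 in all 6 samples, but the Y-linked Kdm5d and Uty were not. Kdm5d was 0.38, 1.06 and 0.39 CPM in control and 0.49, 0 and 0.77 CPM in Mt1ko. Uty was 0.041, 0.019 and 0.059 CPM in control and 0, 0.36 and 0.021 CPM in Mt1ko. Of the other X-linked genes examined, Kdm6a was highest in sample 10-12, at 70.3 CPM against 30.4 to 46.1 CPM elsewhere, whereas Kdm5c was lowest there, at 104 CPM against 116 to 148 CPM.

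Bcorl1, the paralog that can take the place of BCOR in the complex, lies on the X chromosome as well (chrX:48341358-48408049, plus strand) and has no overlapping gene. It was 26.7, 21.1 and 35.4 CPM in control and 28.7, 32.7 and 20.5 CPM in Mt1ko, and the groups overlapped. The means were 27.8 ± 7.2 CPM and 27.3 ± 6.2 CPM (SD over 3 samples each), and the log2 difference was -0.02 (95% interval -0.61 to 0.56, SE 0.25). The sign turned when some samples were left out, to 0.19 without control sample 14-15 and to 0.14 without Mt1ko sample 16-18. Per kilobase, the ratio of Bcor to Bcorl1 was 4.27, 5.43 and 2.73 in control and 4.62, 5.03 and 7.43 in Mt1ko, so that the transcripts of this scaffold pair came mostly from Bcor in every sample, while the ratio itself overlapped between groups.

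Pcgf1, the subunit that sets this complex apart from other forms of Polycomb repressive complex 1, was the least abundant member per length. The gene is compact (chr6:83077869-83080855, plus strand). It had 2.44, 2.10 and 0.50 CPM in control and 3.42, 0.64 and 2.45 CPM in Mt1ko, resting on 34 to 364 counts per sample. Control sample 14-15 and Mt1ko sample 10-12 were low together, and library 10 had no count at all, which allows up to 0.0999 CPM if 3 counts are taken as the limit. The log2 difference was 0.37 with an interval of -1.67 to 2.41 (SE 0.88), wide enough to hold a large difference in either direction. It was -0.12 without Mt1ko sample 4-6 and -0.06 without control sample 14-15.

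Kdm2b, the CpG-binding histone demethylase (chr5:122870665-122989823, minus strand), was 39.1, 21.97 and 25.8 CPM in control and 38.3, 30.0 and 29.9 CPM in Mt1ko. The groups overlapped, and control sample 1-3 was the highest of all 6. The log2 difference was 0.18 (95% interval -0.38 to 0.74, SE 0.24). Single libraries ran from 8.52 CPM in library 11 to 50.9 CPM in library 10, which belong to the same Mt1ko sample. The value is less certain than its depth implies, since the gene overlaps Rnf34 on the opposite strand, with which its longest transcript shares 627 identical bases, and a processed pseudogene, Gm12397, matches 615 of its bases without a difference. Over all libraries Kdm2b had 17129 counts, Rnf34 8419 and Gm12397 1022, and it is not stated how the authors' counting divided shared reads.

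SKP1, encoded by Skp1a, is the adaptor that pairs with the F-box of KDM2B and also serves the SCF ubiquitin ligases. Skp1a (chr11:52231995-52246858, plus strand) was 97.3, 90.7 and 79.9 CPM in control and 107.9, 82.2 and 98.8 CPM in Mt1ko. The groups overlapped, and the log2 difference was 0.11 (95% interval -0.24 to 0.45, SE 0.15). Library 12 was far below its companions, at 28.2 CPM against 70.7 and 106.9 CPM in libraries 10 and 11.

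RING1 and RNF2 are alternative catalytic subunits, and neither gene separated the groups. Ring1 (chr17:34020792-34024680, minus strand) was 6.69, 9.00 and 9.65 CPM in control and 7.97, 3.85 and 9.93 CPM in Mt1ko, with a log2 fold change of -0.22 (95% interval -1.15 to 0.71, SE 0.40). It was lowest in sample 10-12, where the 3 libraries had 3.66, 4.05 and 2.04 CPM, and without that sample the log2 difference was 0.09. Rnf2 (chr1:151458004-151500955, minus strand) was 14.5, 16.4 and 17.7 CPM in control and 22.4, 19.4 and 16.2 CPM in Mt1ko, with a log2 fold change of 0.26 (95% interval -0.22 to 0.74, SE 0.21). Only Mt1ko sample 16-18 fell within the control range of Rnf2. Libraries of sample 10-12 disagreed most, from 4.17 CPM in library 11 to 38.1 CPM in library 10. An exon of Rnf2 overlaps Trmt1l on the opposite strand, and Trmt1l had 17420 counts over all libraries where Rnf2 had 9768, so that its counts depend on the strand setting, which is not stated. Per kilobase, Rnf2 exceeded Ring1 in all 6 samples, by 1.70, 1.43 and 1.44-fold in control and 2.21, 3.97 and 1.28-fold in Mt1ko.

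Rybp, whose protein stimulates the ubiquitin ligase and binds ubiquitinated H2A, lies at chr6:100228565-100287485 on the minus strand and was 44.2, 37.3 and 45.3 CPM in control and 40.4, 59.6 and 43.1 CPM in Mt1ko. Of the Mt1ko samples, 10-12 was the only one outside the control range. The log2 difference was 0.17 (95% interval -0.26 to 0.61, SE 0.19) with all samples and -0.01 without sample 10-12. A near-identical pseudogene, Rybp-ps, matches 681 bases of its transcript at 99.3% but took only 18 counts against 24366 for Rybp. Within the span of the gene, the models Gm44044 and Gm44045 on the same strand had 2177 and 1371 counts.

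Bcl6, the DNA-binding partner (chr16:23965052-23988852, minus strand), was 45.9, 89.5 and 48.3 CPM in control and 41.8, 97.5 and 54.4 CPM in Mt1ko. In each group 1 sample was at 89.5 CPM or above while the others lay between 41.8 and 54.4 CPM, so that its largest differences lay within the groups. The log2 difference was 0.08 (95% interval -0.78 to 0.93, SE 0.37), and leaving out single samples moved it from -0.34 without Mt1ko sample 10-12 to 0.47 without control sample 7-9. It was also below 0 without control sample 1-3, at -0.09, and without control sample 14-15, at -0.07. In sample 7-9 all 3 libraries were high, at 97.0, 98.8 and 84.6 CPM, whereas in sample 10-12 they were 133.3, 47.0 and 72.8 CPM.

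**Figure D2:**
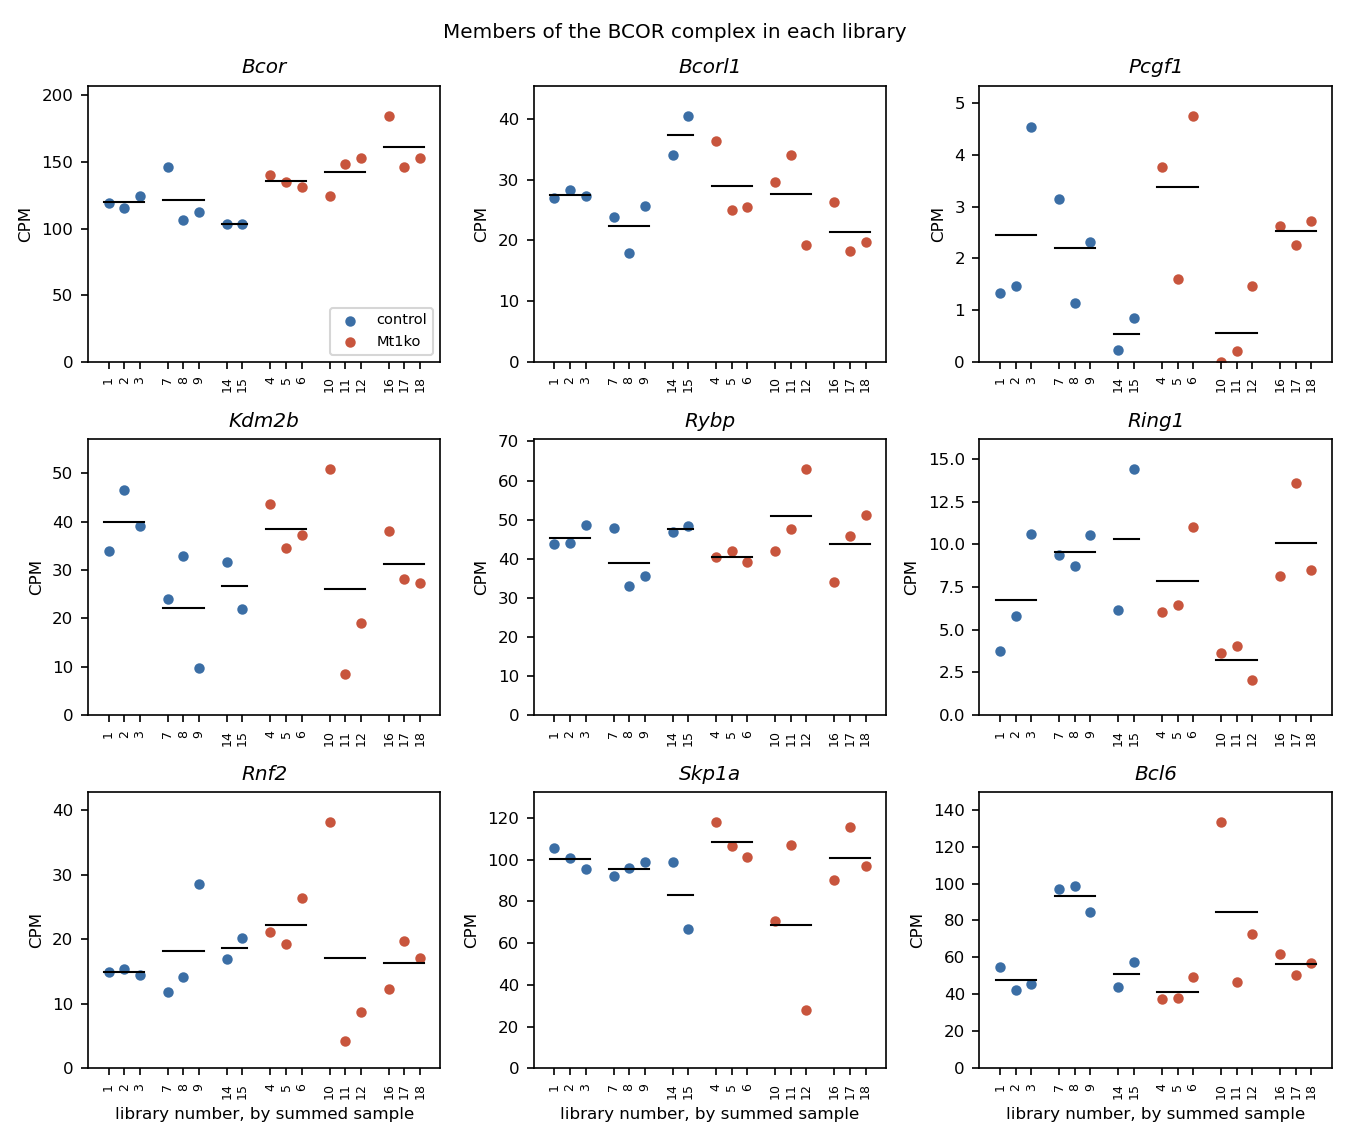
Level of each of the 9 genes (CPM of all counts, vertical axes starting at 0) in the 17 libraries, arranged along the horizontal axis by summed sample, with control in blue and Mt1ko in red and a bar at the mean of the libraries of a sample. Bcor is the panel in which the red points sit above nearly all blue points; the libraries of sample 10-12 scatter widely in Kdm2b, Rnf2, Skp1a and Bcl6.

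Across the genome, edgeR's quasi-likelihood test with Benjamini-Hochberg adjustment called 0 of 16666 genes between Mt1ko and control, which is 0% of those tested, with 171 genes at an unadjusted p under 0.05. DESeq2 called 1 gene, Mt1, and limma-voom called 0. All 9 members passed the filter on low counts and 0 of the 9 were called, in that fit and in each of the 17 alternatives, although Pcgf1 did not pass the stricter filter of 1 of them. Of the members, 7 were higher in Mt1ko and 2 were lower, with a median log2 fold change of 0.17, where 48.3% of all genes tested were higher and their median was -0.01. Groups of summed samples did not overlap for 1 of the 9 members, Bcor, and for 7.1% of all genes tested. Since Bcor entered the set through this contrast, nothing is read from that count.

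**Figure D3:**
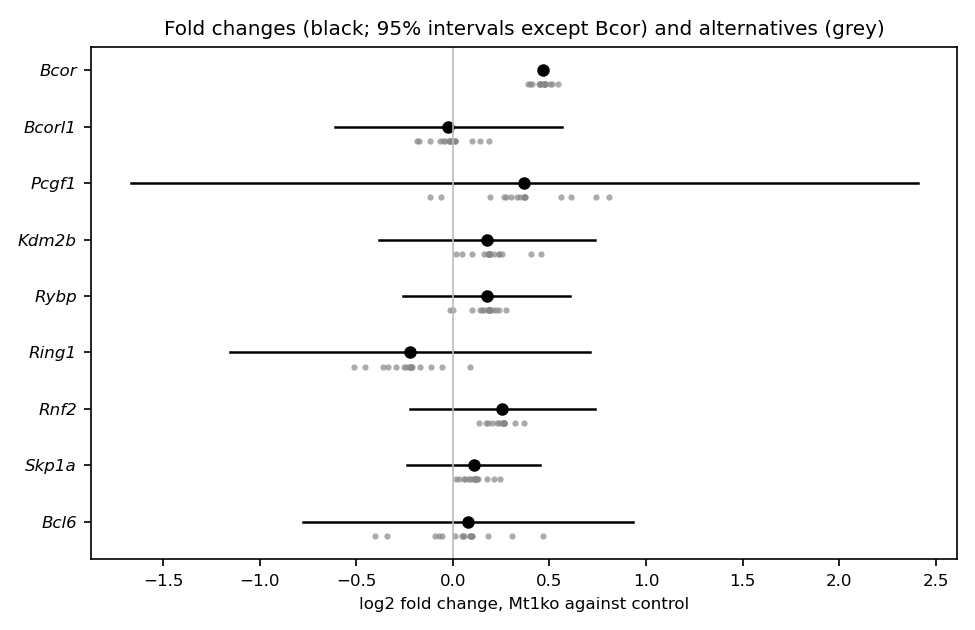
Log2 fold change of each member, Mt1ko against control (horizontal axis), from edgeR on the 6 summed samples, with 95% intervals as black lines for all members but Bcor, which was selected on this contrast, and the values of the alternative analyses as grey points. Bcor lies at 0.46 with all grey points between 0.39 and 0.54, whereas the points of Bcorl1, Pcgf1, Rybp, Ring1 and Bcl6 fall on both sides of 0.

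The members differed in how closely libraries of the same sample matched. The coefficient of variation among libraries of a sample was 10.1% for Bcor, 14.9% for Rybp and 18.8% for Bcorl1. It was 24.9% for Bcl6 and 26.8% for Skp1a, although the latter had 5383 or more counts in every summed sample. It reached 39.4% for Ring1, 43.5% for Kdm2b, 50.4% for Rnf2 and 77.9% for Pcgf1. For Pcgf1, Kdm2b, Ring1, Rnf2 and Skp1a, libraries of a sample differed more than the 6 samples did, whose coefficients of variation were 59.04%, 21.98%, 29.2%, 15.8% and 11.5%. For Bcor the order was the other way, with 19.8% over the 6 samples. So it was for Bcl6, with 38.4%, Bcorl1, with 21.9%, and Rybp, with 17.1%. The value of Bcor over the 6 samples includes the group difference on which it was selected. Each sample is a sum of 2 or 3 libraries, which evens out differences between libraries, so the 2 kinds of coefficient are not directly comparable. The highest library exceeded the lowest by 9.15-fold for Rnf2, 7.08-fold for Ring1 and 5.98-fold for Kdm2b, and by 1.79-fold for Bcor. For Rnf2 and Kdm2b these were libraries 10 and 11, both of sample 10-12, which had much mitochondrial ribosomal RNA and few genes detected. Skp1a also scattered widely in that sample. The coefficients include it and were not computed without it, so they are not traits of the genes alone.

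To order the members by abundance, levels were divided by the length of all annotated exons of the gene joined together. On this scale, in CPM per kilobase (mean ± SD over 6 samples), Skp1a was highest at 42.0 ± 4.8, followed by Bcor at 15.2 ± 3.0. Rybp and Bcl6 were close, at 9.49 ± 1.63 and 9.39 ± 3.61. Rnf2 followed at 4.30 ± 0.68, Bcorl1 at 3.23 ± 0.71, Kdm2b at 2.84 ± 0.62, Ring1 at 2.42 ± 0.71 and Pcgf1 at 1.17 ± 0.69. Neighbours in this order were compared by an exact two-sided sign-flip permutation test of the 6 within-sample log2 ratios, whose smallest p is 0.03125, with Benjamini-Hochberg adjustment over the 8 pairs. Skp1a exceeded Bcor by 2.80-fold, Bcor exceeded Rybp by 1.59-fold, Bcl6 exceeded Rnf2 by 2.08-fold, Rnf2 exceeded Bcorl1 by 1.35-fold and Ring1 exceeded Pcgf1 by 2.46-fold, each in 6 of 6 samples. These 5 pairs had that smallest p, which became 0.05 after adjustment and so did not fall under the threshold of 0.05. The remaining neighbours did not differ beyond their spread: Rybp and Bcl6 (4 of 6 samples, adjusted permutation p 0.69), Bcorl1 and Kdm2b (3 of 6, 0.42) and Kdm2b and Ring1 (3 of 6, 0.43).

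Rybp and Bcl6 changed places in these means in 4 of the 6 cases when 1 sample was left out (without sample 4-6, Bcl6 was at 10.02 and Rybp at 9.68), and the other members kept their places in all 6. With the length of the longest transcript in place of the exon union, Skp1a and Bcor stayed first and second and Ring1 and Pcgf1 last, whereas Bcl6 came before Rybp, and Kdm2b rose from place 7 to 5. Bcor exceeded the other complex subunits except Skp1a in every sample: it was 1.19 to 1.97 times Rybp, 3.73 to 6.99 times Kdm2b and 7.52 to 49.6 times Pcgf1 per kilobase. Against Bcl6 it was 1.01 to 2.49 times per kilobase of exon union, lowest in control sample 7-9 where Bcl6 was high. That order depends on the length used. The longest transcript is 6.94 of 8.67 kb for Bcor but 3.93 of 6.7 kb for Bcl6. With it, Bcl6 was above Bcor in control sample 7-9 and Mt1ko sample 10-12.

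**Figure D4:**
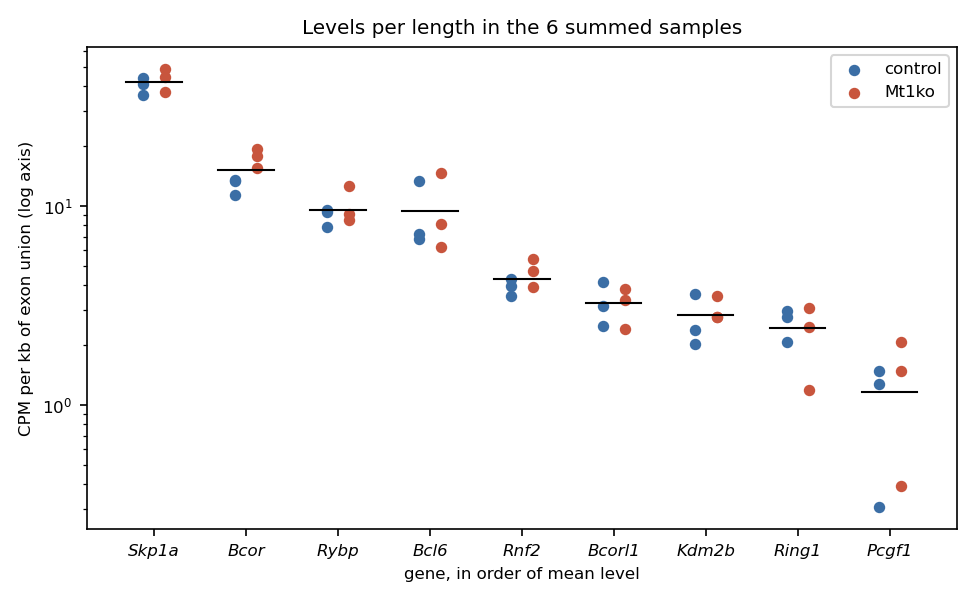
Level of each member in CPM per kilobase of exon union (log axis) in the 6 summed samples, ordered by mean, with control in blue, Mt1ko in red and a bar at the mean of all 6. Skp1a and Bcor lead, Pcgf1 is lowest and most spread, and Bcor is the gene whose red points all lie above its blue points.

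The genes whose levels ran most alike with Bcor over the 17 libraries were then listed, among 4814 genes whose average over libraries reached 5 on the log2 CPM scale. These libraries share their source within a sample, and group and library quality both enter these values, so that Pearson's r and Spearman's rho are descriptions with no p. Among the closest were Hdac2, a histone deacetylase (r 0.76, rho 0.66), Fam50a (0.74 and 0.60), Daam1, a formin that builds actin filaments (0.71 and 0.67), and Nhp2, a small nucleolar ribonucleoprotein (0.70 and 0.72). The most opposed were Mt1 itself (-0.78 and -0.71), Trip11, a Golgi tethering protein (-0.78 and -0.67), Cytip, a binding partner of cytohesins (-0.76 and -0.72), Pcgf3, the paralog of Pcgf1 in another variant Polycomb complex (-0.75 and -0.83), and Braf, a kinase of the MAP kinase cascade (-0.74 and -0.69). Without libraries 10 to 12, r was -0.77 for Mt1 and -0.81 for Cytip, but 0.55 for Hdac2 and -0.61 for Pcgf3, and 2 of the 10 genes were again among the 10 most extreme. Bcor was selected on the contrast that Mt1 defines, so a negative r between them was set in advance, with or without those libraries. Other genes that differ between the groups are favoured in the same way, and nothing is read from these ranks.

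The partners themselves were then set beside Bcor. Over the 17 libraries r was 0.48 for Rybp, 0.20 for Bcl6, 0.02 for Pcgf1, 0.00 for Kdm2b, -0.07 for Bcorl1, -0.27 for Skp1a, -0.32 for Rnf2 and -0.45 for Ring1. Of all genes reaching the same average level, 97.1% had a lower r than Rybp, 80.3% a lower r than Bcl6 and 9.23% a lower r than Ring1. Ring1 itself averaged 2.98 on the log2 CPM scale in the summed samples, below that level of 5. Its r was thus ranked against better counted genes. Without libraries 10 to 12, r was -0.03 for Rybp, -0.10 for Bcl6, 0.59 for Pcgf1, 0.29 for Kdm2b, -0.30 for Bcorl1, 0.33 for Skp1a, -0.23 for Rnf2 and 0.01 for Ring1. The sign of r thus differed with and without those 3 libraries for Rybp, Bcl6, Skp1a and Ring1, and Pcgf1 came closest to Bcor only when they were left out.

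The wider Polycomb machinery was described through lists of related genes, in none of which a gene was called. Of 28 tested members of canonical and other variant forms of Polycomb repressive complex 1, 15 were higher and 13 lower in Mt1ko, with a median log2 fold change of 0.01, against -0.01 for all genes. The largest difference among its well expressed members was that of Pcgf3, at 56.4, 64.8 and 59.1 CPM in control and 53.5, 36.6 and 55.1 CPM in Mt1ko, with a log2 fold change of -0.31 (SE 0.18) that was -0.14 without sample 10-12. All 3 Mt1ko samples of Pcgf3 lay below the control range. Groups did not overlap, in either direction, for 7.1% of all genes tested. Pcgf3 was named as the largest difference of its list, so nothing is read from its separation. E2f6, a DNA-binding subunit of a further variant complex, had a log2 fold change of -0.27 (SE 0.20), and Bmi1, the canonical counterpart of PCGF1, -0.19 (SE 0.33). Yaf2, the paralog of Rybp, averaged 29.2 ± 8.5 CPM over the control and 32.2 ± 3.3 CPM over the Mt1ko samples (SD over 3 samples, as below).

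Polycomb repressive complex 2 methylates histone H3 and often acts on the same genes. Of its 13 listed subunits, all tested, 8 were higher and 5 lower, with a median of 0.04. Its enzyme Ezh2 averaged 24.0 ± 2.9 CPM in control against 18.7 ± 4.9 CPM in Mt1ko, a log2 difference of -0.36 (SE 0.24). The alternative enzyme Ezh1 averaged 58.7 ± 3.2 against 53.6 ± 3.1 CPM, a log2 difference of -0.13 (SE 0.12). The deubiquitinase that removes the mark placed by RING1 and RNF2 had 4 of 10 tested members higher and 6 lower, with a median of -0.03. Its catalytic subunit Bap1 averaged 46.1 ± 4.9 CPM in control against 48.4 ± 1.5 CPM in Mt1ko. Among SCF ligase partners of SKP1, 6 of 10 were higher and 4 lower, with a median of 0.02, and Cul1, the cullin that SKP1 binds, had a log2 fold change of 0.14 (SE 0.14).

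Corepressors and deacetylases that work with BCL6 numbered 13 tested genes, 5 higher and 8 lower, with a median of -0.08. Among its well expressed genes, averaging 3 or more on the log2 CPM scale, the largest differences were those of deacetylases, in opposite directions. Hdac3, which works in NCOR complexes, was 27.2, 26.1 and 29.6 CPM in control and 22.3, 8.38 and 17.9 CPM in Mt1ko, below the control range in every sample, with a log2 fold change of -0.77 (SE 0.33) that was -0.46 without sample 10-12. Hdac2 was 49.8, 54.5 and 47.3 CPM in control and 61.1, 84.6 and 57.4 CPM in Mt1ko, above the control range in every sample, with a log2 fold change of 0.42 (SE 0.18) that was 0.23 without sample 10-12. Neither was called, and both were most extreme in the sample with much mitochondrial ribosomal RNA, whose part in these values was not tested. Both were named for their large differences, and 7.1% of all genes tested had groups without overlap, so nothing is read from their separation.

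Known targets of BCL6 repression were nearly evenly divided, with 9 of 17 higher and 8 lower, with a median of 0.01. Ccl3, a chemokine gene, was 41.2, 36.5 and 39.3 CPM in control and 57.6, 51.7 and 51.0 CPM in Mt1ko, with no overlap and a log2 fold change of 0.45 (SE 0.13), and 0.48 without sample 10-12. It was not called and was named for its fold change. Since 7.1% of all genes tested had groups without overlap, nothing is read from its separation. Ccnd2 and Cd69 had larger log2 fold changes, 1.43 (SE 1.01) and 1.01 (SE 0.71), with Mt1ko standard deviations as large as or close to their means, 98.6 ± 135 and 13.4 ± 12.9 CPM. Atr had -0.29 (SE 0.21).

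The list of genes known to be repressed by Polycomb complexes in blood had 11 of 12 tested genes higher, 1 lower and a median log2 fold change of 0.35. The name of the list does not describe their state here. Of the 16 listed genes, 8 had a control mean of 10 CPM or more, with Cebpa at 87.3, Hoxa9 at 60.5 and Hoxa7 at 44.5 CPM. Several were far higher in sample 10-12 than in any other. Gata2 was 128.6 CPM in that sample and 5.04 to 23.6 CPM in the others, Kit 296.9 CPM against 13.9 to 58.5 CPM, and Cdkn2a 13.2 CPM against 0.89 to 3.80 CPM. Kit and Gata2 are also mast cell genes, and the mast cell protease Cpa3 was 1564 CPM in sample 10-12 against 48.5 to 224 CPM elsewhere. The summed level of 10 mast cell and basophil markers ran from 7.19 to 2207 CPM over control libraries and from 39.1 to 7008 CPM over Mt1ko libraries, with 7 of 8 tested markers higher and Prss34 at 0. Without sample 10-12, Gata2 and Kit were lower in Mt1ko, with log2 fold changes of -0.97 and -0.82. Cpa3 was 128 and 48.5 CPM in the Mt1ko samples 4-6 and 16-18, and 68.8, 224 and 180 CPM in control. The part of mast cells in the Polycomb-repressed genes was not tested. Without sample 10-12, 7 of the 12 Polycomb-repressed genes were higher and 5 lower, with a median of 0.06.

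Hoxa9 and Cdkn2c had larger differences without that sample than with it. Hoxa9 is a homeobox gene active in leukaemia with mutant Npm1. Its levels were 70.7, 53.4 and 57.3 CPM in control and 80.0, 62.1 and 90.7 CPM in Mt1ko, which overlapped, with a log2 fold change of 0.36 (SE 0.18) and of 0.50 without sample 10-12. Cdkn2c, a cell cycle inhibitor, was 19.4, 19.5 and 16.8 CPM in control and 27.4, 19.0 and 24.3 CPM in Mt1ko, with a log2 fold change of 0.34 (SE 0.20) and of 0.48 without that sample. Meis1, the usual partner of Hoxa9, had a log2 fold change of -0.07, which was 0.08 without sample 10-12, and Hoxa10 one of 0.10, which was 0.33 without it.

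**Figure D5:**
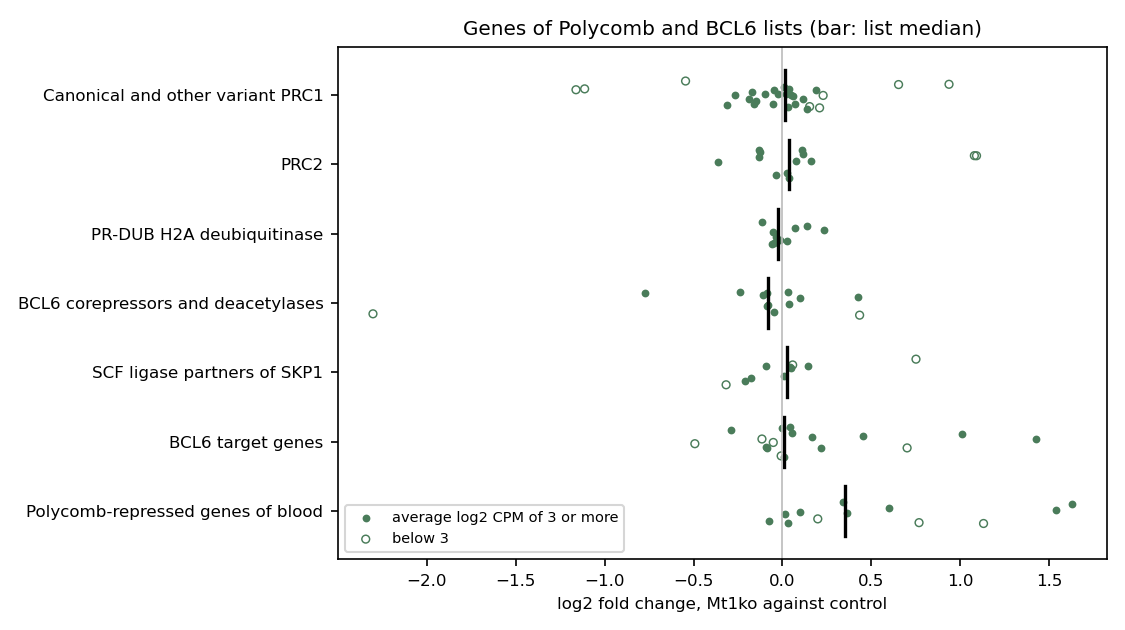
Log2 fold change, Mt1ko against control (horizontal axis), of each tested gene in 7 lists of Polycomb and BCL6 genes, with filled points for an average log2 CPM of 3 or more, open points below 3 and a black bar at the list's median. The medians of 6 lists lie between -0.08 and 0.04, and that of the Polycomb-repressed genes lies at 0.35 with Gata2 and Kit farthest to the right.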

How the data were processed

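Total RNA was extracted (RNeasy Micro, DNase treated) and converted to libraries with the stranded SMARTer v2 Pico kit, per the labels' protocols. The submitters' processing notes name Trimmomatic 0.35, RSEM 1.3.3 and the build GRCm38 (mm10). Not given in the sources used here: aligner, strand setting and how RSEM estimates became whole numbers. Unnormalized whole-number gene counts were deposited by the authors for 17 libraries and for 6 sums of them; no column lacked a group. The numbering has no library 13, which was not analysed here.

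The 6 sums entered edgeR 4.0.16 in R 4.3.3 (filterByExpr, TMM, quasi-likelihood F test, group alone, Benjamini-Hochberg threshold 0.05), because the labels call the libraries technical replicates. The fitting code was tested on simulated data. Standard errors are the log2 fold change over the root of F. Correlations used log2 CPM (TMM-scaled, prior count 1). The order of levels used exact permutation over samples. Gene models came from GENCODE release 21 for mouse (GRCm38; 55141 of 56305 identifiers matched), near copies from blastn 2.17.0 and promoter windows from RefSeq (GRCm38.p6).

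The members, the lists and the rules were chosen with earlier results of these data known, and therefore support nothing independently. Named besides the members are Mt1, the 5 genes most like and most unlike Bcor (1 of them is not reported here), up to 6 genes of each list with the largest fold change at an average log2 CPM of 3 or more, and the highest markers. Yaf2, Cdkn2a, Ms4a1, Pax5, Meis1, Prss34, and the X- and Y-linked genes lie outside that rule and were named after their values were seen. Tried as alternatives were scaling by RLE or upper quartiles, no filter, a filter of 1 CPM in every sample of a group, 17 libraries with and without the second index, DESeq2 1.42.0, limma 3.58.1 (voom), each sample left out, and library 6 or libraries 10 to 12 left out. Taking out mitochondrial ribosomal RNA was chosen after seeing the data. Intervals and limits cover only counting error and sample spread; reads copied by PCR are not independent.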

Additional observations from a re-analysis of the deposited data

Results flagged for a closer look

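Within the 8 control and the 9 Mt1ko libraries, each member and Mt1 were examined for a library whose distance from its nearest neighbour was large against the range of its group (Dixon's 95% criterion). Of the 20 groups examined, 4 held such a library, where chance gives about 1 in 20 groups of independent values. The libraries here are technical replicates within 3 summed samples of each group, whose levels differ, so that this rate is only a rough guide, and the Mt1 level of library 6 was known from earlier results. Bcor was highest in Mt1ko library 16, at 184.7 CPM of all counts, with the next Mt1ko library at 153.0 CPM. This depends on the total used. With mitochondrial ribosomal RNA counts taken out, library 12 was highest, at 219.1 CPM, and library 16 had 194.9 CPM, close to library 11 at 190.3 CPM. Bcl6 was highest in Mt1ko library 10, at 133.3 CPM, with the next at 72.8 CPM. Skp1a was lowest in control library 15, at 67.0 CPM, with the next at 92.1 CPM. Mt1 was highest in Mt1ko library 6, at 326.2 CPM, with the next at 87.2 CPM.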

How the results depend on the processing

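The log2 fold change of Bcor kept its direction in all 17 alternatives, from 0.39 to 0.54, and 0 of the 9 members were called in any of them. Bcor was selected on this contrast, with every Mt1ko sample above every control sample, so that leaving out samples could hardly turn its sign. Nothing is read from its steadiness. The number of genes called was 0 in 13 alternatives and 1, Mt1, with 17 libraries, with DESeq2, without library 6 and without library 6 and libraries 10 to 12. Kdm2b (0.02 to 0.46), Rnf2 (0.13 to 0.37) and Skp1a (0.02 to 0.24) also kept their direction. Bcorl1 turned to 0.012 with 17 libraries, 0.10 with the second index added, 0.0089 with limma-voom and 0.010 without library 6, and ranged from -0.18 to 0.19 with single samples left out. Bcl6 turned to -0.058 with the second index and to -0.40 without library 6 and libraries 10 to 12, and ranged from -0.34 to 0.47 with single samples left out. With single samples left out, Pcgf1 ranged from -0.12 to 0.81, Ring1 from -0.51 to 0.088 and Rybp from -0.015 to 0.28. The cause was not tested. Pcgf1 gave no value under the stricter filter. Without libraries 10 to 12, 2 of the 10 genes most like or unlike Bcor were named again, and 10 of 10 with a prior count of 5. No neighbouring pair of levels passed in any alternative, and with 5 samples the smallest possible exact permutation p is 0.0625. Of the list medians, that of BCL6 targets moved to 0.23 and that of SCF partners to -0.09 without control sample 1-3, that of the deubiquitinase to 0.04 without Mt1ko sample 4-6, and that of Polycomb-repressed genes to 0.06 without sample 10-12 and to -0.01 without library 6 and libraries 10 to 12. No paired analysis was possible because the groups share no replicate numbers. Pcgf1 had both the fewest counts and the widest spread among libraries of a sample, and the part of each in its interval was not tested.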
